A study of Mus musculus with 4 samples.

Results

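CCCTC-binding factor (CTCF) was mapped by chromatin immunoprecipitation and sequencing in left-ventricular cardiac myocytes of C57BL/6 mice. The regions described here are those that lie inside very long genes. A region belongs to this set when its summit falls within a protein-coding gene of 200 kb or longer and more than 1 kb from the start and end of every protein-coding and lncRNA gene. The rule used gene positions only and no measured value. It gave 1806 of the 20043 control regions (9.01%) and 1349 of the 16128 regions of the other list (8.36%). The study held 1 ChIP library from control hearts and 1 from hearts labelled CTCF_knockout, each made from myocytes pooled from 3 hearts, and 1 input library for each genotype that was not analysed here as a sample of its own. How the deletion was made, and at what age, is not given in the sources used here. The region lists hold no expression, so the labelled cell type could not be checked against markers. Because 69.0% of all control regions were called again in the second library, that library is called by its label throughout. With 1 library per genotype no test between genotypes was possible, and every interval below is a 95% interval that covers counting error only. Fewer cells with bound CTCF and less binding per cell cannot be told apart in such pools.

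CTCF is a zinc-finger DNA-binding protein that halts the loop-extruding cohesin ring and so sets the ends of many chromatin loops. Most of its sites lie away from promoters, many of them inside genes, where bound CTCF is known to partition the gene among loops and can influence which promoter or exon is used. Very long genes owe their length mainly to large introns and are rich in genes of cell adhesion, synapses, ion channels and the cytoskeleton. In heart muscle they include the genes of titin, dystrophin and the calcium release channels.

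Some of these regions lie at starts of transcripts that the gene's outer boundary hides. RefSeq promoter windows (GRCm38.p6, 250 bases before to 50 after a listed start) overlapped 17 of the 1806 control regions (0.941%), of which 9 had a counterpart in the library labelled knockout and 8 had none. Of the 990 long genes, 744 had a strand in that table. The sequences are shown because they are the only stretches of these regions held in the tables used here. Only some of the 17 windows are printed. They were chosen after their values had been seen, and windows with a motif are more frequent among them than among the 17. Capitals mark matches, on either strand, to a core form of the CTCF motif of 12 positions or to AGNNGGCGC, the end of the longer consensus. The second motif was added after the sequences had been seen, and it overlaps the core form in part. Each sequence runs 5′ to 3′ on the strand of its transcript and ends at the base before the start.
Kcnh1 (chr1:192190527-192190776, plus strand): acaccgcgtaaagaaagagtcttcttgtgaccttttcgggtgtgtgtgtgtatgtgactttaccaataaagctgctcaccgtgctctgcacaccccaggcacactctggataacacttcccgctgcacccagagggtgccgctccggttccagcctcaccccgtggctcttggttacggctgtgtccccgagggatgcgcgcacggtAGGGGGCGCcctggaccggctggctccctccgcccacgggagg
Msl3l2 inside Tbc1d32 (chr10:56106667-56106916, plus strand): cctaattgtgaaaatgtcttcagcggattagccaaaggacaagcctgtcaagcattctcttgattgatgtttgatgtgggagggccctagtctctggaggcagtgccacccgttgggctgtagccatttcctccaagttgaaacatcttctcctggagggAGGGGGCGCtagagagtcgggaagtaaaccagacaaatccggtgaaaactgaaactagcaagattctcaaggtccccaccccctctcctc
App (chr16:85173708-85173957, minus strand): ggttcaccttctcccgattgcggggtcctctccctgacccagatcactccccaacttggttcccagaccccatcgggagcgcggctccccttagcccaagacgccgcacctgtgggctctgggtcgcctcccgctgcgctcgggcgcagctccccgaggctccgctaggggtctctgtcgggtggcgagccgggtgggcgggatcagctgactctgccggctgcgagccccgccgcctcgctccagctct
Camk2d (chr3:126596701-126596950, plus strand): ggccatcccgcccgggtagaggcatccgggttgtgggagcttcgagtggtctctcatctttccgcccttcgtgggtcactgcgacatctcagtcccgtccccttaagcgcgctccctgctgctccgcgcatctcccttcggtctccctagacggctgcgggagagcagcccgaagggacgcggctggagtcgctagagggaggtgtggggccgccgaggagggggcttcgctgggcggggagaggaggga
Abr (chr11:76437306-76437555, minus strand): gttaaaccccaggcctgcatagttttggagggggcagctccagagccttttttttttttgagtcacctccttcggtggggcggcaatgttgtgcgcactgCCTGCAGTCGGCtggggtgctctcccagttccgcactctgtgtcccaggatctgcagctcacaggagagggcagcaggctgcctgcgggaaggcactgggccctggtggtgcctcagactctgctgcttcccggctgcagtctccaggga

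At Kcnh1, a voltage-gated potassium channel gene, the listed start lay 1.63 kb inside the gene, and the region there reached a fold enrichment over the local background of 15.1 in the control and 8.54 in the list labelled knockout. The control summit was 26 bp from the capitals. At the window inside Tbc1d32 the fold enrichment was 7.98 in the control and 7.51 in the other list. At App, the amyloid precursor protein gene, it was 18.9 and 10.0, with neither motif in the window. The region at the start inside Camk2d, which encodes the main calmodulin-dependent kinase of heart muscle, had 8.63 in the control list and was not called in the other. The match of its window straddles the start, so it is not in capitals. The region at the inner start of Abr, 186 kb into the gene, had 3.88 and was also not called, and its control summit lay on the match. Of the 17 windows 2 held the first motif, 1 at a kept and 1 at a lost region. The match at the kept region, in another window of Abr, lay 343 bp from the control summit and outside that region. The first motif was present in 8.61% of all 32817 windows and in 7.41% of the 499 windows that start over 1 kb inside long genes. It was present in 32.9% of the 1645 windows overlapped by control regions within 1 kb of a gene end. The second motif was found in 4 of the 17, against 7.23%, 6.21% and 30.2%.

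CTCF regions inside very long genes were called again less often than regions elsewhere. Of the 1806 control regions, 1108 overlapped a region of the list labelled knockout by 1 bp or more and are called kept (61.4%, Wilson interval 59.1 to 63.6), against 69.0% of all control regions. The other 698 are called lost, meaning that nothing passed the caller's threshold there. Inside shorter genes 4221 of 6108 were kept (69.1%), between genes 4841 of 6665 (72.6%) and within 1 kb of a gene end 2860 of 4375 (65.4%). The share in very long genes minus that in shorter genes was -7.76 percentage points (Newcombe interval -10.3 to -5.25). The difference was -11.3 points from regions between genes (-13.8 to -8.81) and -4.02 points from regions at gene ends (-6.68 to -1.38), so that each interval lay below 0.

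**Figure D1:**
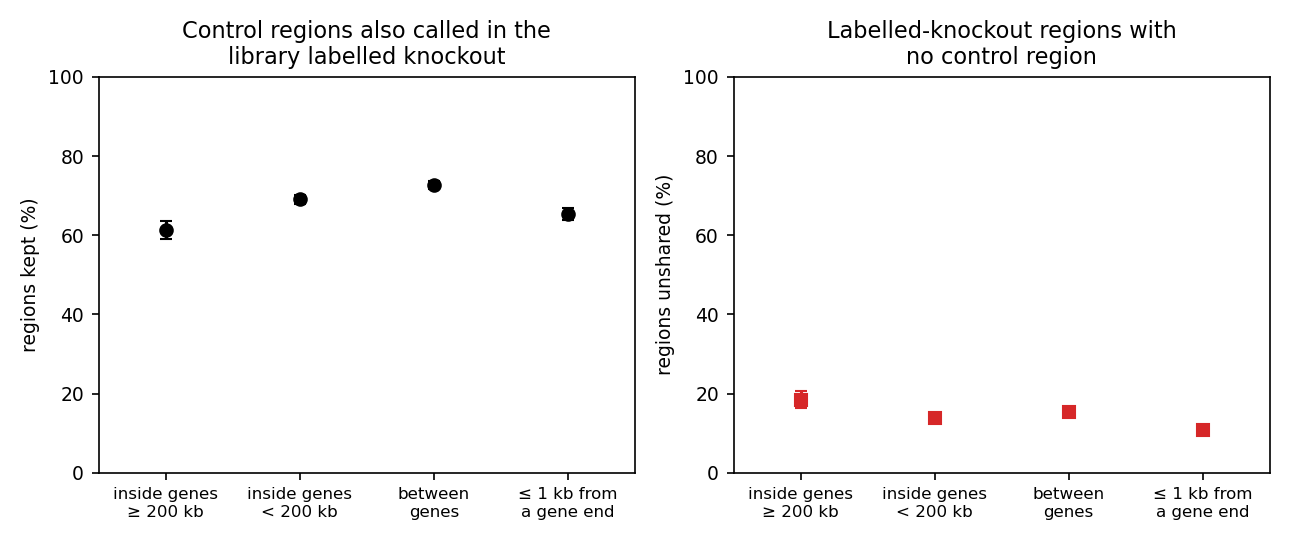
Left, percentage of control regions called again in the library labelled knockout by position, and right, percentage of labelled-knockout regions without a control region, with Wilson 95% intervals. Regions inside genes of 200 kb or longer have the lowest kept share of the 4 classes (61.4%) and the highest unshared share (18.5%).

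The regions in very long genes were also weaker and narrower. Their median control fold enrichment was 6.48 (order-statistic interval 6.48 to 6.68) against 6.98 in shorter genes and 7.08 between genes, and their median width was 206 bp (201 to 211) against 227 and 229 bp. A pileup, the number of overlapping fragments at the summit, could be recovered for every region, and its control median was 14 reads in very long genes, 15 in shorter genes and 16 between genes. Only 58 of the 1806 (3.21%) reached 30 reads, against 7.47% between genes. Of the regions of very long genes with 6 to 9 reads 23.02% were kept, with 13 to 16 reads 65.7%, and with 23 to 29 reads 96.5%. Among all other control regions these shares were 20.4%, 71.7% and 97.6%. At 30 reads and more the share was lower again, with 53 of 58 kept in very long genes (91.4%, 81.4 to 96.3) and 96.6% elsewhere.

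**Figure D2:**
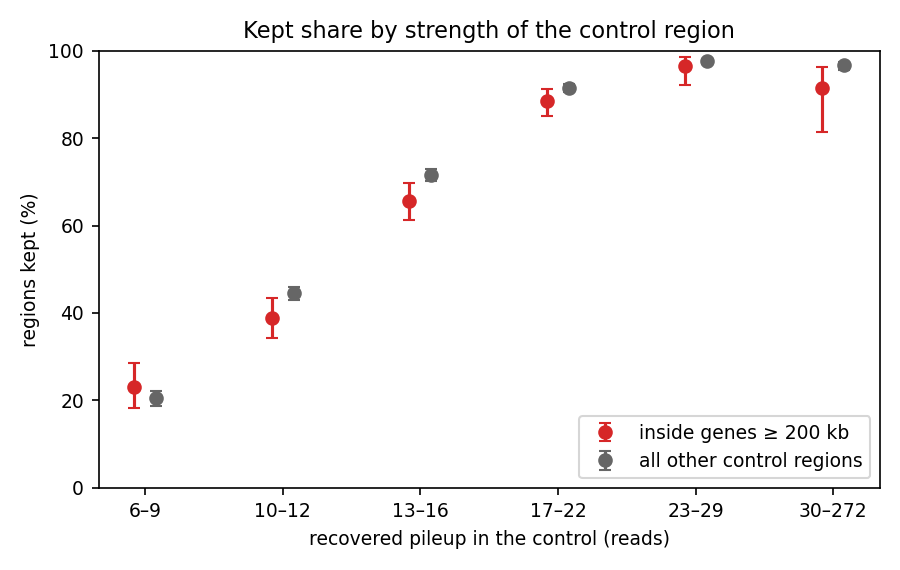
Percentage of control regions kept (y axis) by recovered control pileup in reads (x axis), for regions inside genes of 200 kb or longer and all other control regions, with Wilson 95% intervals. Both series climb up to 23 to 29 reads and are lower again in the last bin (91.4% and 96.6%), and the long-gene points lie below the others in each bin but the weakest.

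All other control regions at the same pileups would have given 64.7% kept. The observed share minus this was -3.35 points (interval -5.62 to -1.13, with the expected share taken as fixed), while the difference from all other regions without matching was -8.40 points. With a reciprocal overlap of at least 50% the matched difference was -1.31 points (-3.61 to 0.981), and with a gene length of at least 400 kb it was -2.21 points (-5.73 to 1.20). Both of those intervals included 0.

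The list labelled knockout held 249 regions in very long genes that overlapped no control region, 18.5% of 1349 (interval 16.5 to 20.6), against 14.2% of that whole list. The share was 13.9% in shorter genes, 15.4% between genes and 10.9% at gene ends. Members exceeded shorter genes by 4.53 points (2.31 to 6.88). At the same pileups 15.9% was expected, and the excess was 2.52 points (0.542 to 4.68). The kept regions themselves had a median pileup of 16.5 reads in the control and 14 in the library labelled knockout, with a median ratio of 0.875. For all other kept regions the median ratio was 0.867, and the lowest local background of the 2 libraries, which scales with depth, stood at a ratio of 0.846.

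Per length, very long genes carried few regions. They held 4.37 control regions per Mb of open length (exact Poisson interval 4.17 to 4.58), where open length leaves out 1 kb around every gene end. Shorter genes held 10.9 per Mb and the space between genes 4.61. The density was thus 0.403 of that in shorter genes (0.382 to 0.425) and 0.949 of that between genes (0.900 to 0.9995). In the list labelled knockout these ratios were 0.375 (0.353 to 0.398) and 0.825 (0.777 to 0.875).

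Density fell along the whole range of gene length. Per Mb of summed gene length there were 12.1 control regions in genes under 50 kb, 9.06 in genes of 50 to 100 kb, 7.38 at 100 to 200 kb, 6.26 at 200 to 300 kb, 5.13 at 300 to 500 kb, 3.32 at 500 to 1000 kb and 1.56 in genes over 1000 kb. The kept share also went down: 71.4% under 50 kb, 66.2% at 100 to 200 kb, 62.0% at 200 to 300 kb, 62.8% at 300 to 500 kb, 60.5% at 500 to 1000 kb and 53.2% (44.5 to 61.8) over 1000 kb. Neighbouring bins from 200 kb upward had overlapping intervals. At the same pileup 66.0%, 65.5%, 62.9% and 59.1% were expected in the 4 bins from 200 kb upward. Just below the length limit, genes of 180 to 200 kb had 161 control regions with 68.3% kept and a median fold enrichment of 6.98. Just above it, genes of 200 to 220 kb had 166, with 65.7% and 6.82. At the distance limit, regions in long genes 0.5 to 1 kb from a gene end numbered 55, with 38.2% kept and a median pileup of 10 reads. Those 1 to 1.5 kb from a gene end numbered 48, with 60.4% and 14.5 reads.

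Counted gene by gene, 674 of the 990 long genes had at least 1 control region and 316 had none. The number per gene ran from 0 to 13 with a median of 1. There were 242 genes with 1 region, 143 with 2, 123 with 3, 73 with 4 and 93 with 5 or more. Number and length were nearly unrelated across the 990 genes (Pearson r 0.104, Spearman rho 0.0972, given as a description, since genes share libraries and chromosomes). Among the 432 genes with 2 or more control regions, 101 kept all of them, 31 kept none and 300 had both kept and lost regions. The numbers that unrelated regions would give were not worked out. Genes with 5 or more regions kept 64.6% of theirs, and genes with a single region 56.2%. A further 37 genes had a region in the list labelled knockout alone, which left 279 with none in either list. Regions that lie in more than 1 long gene were few, 8 in the control list, and were counted in each gene.

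**Figure D3:**
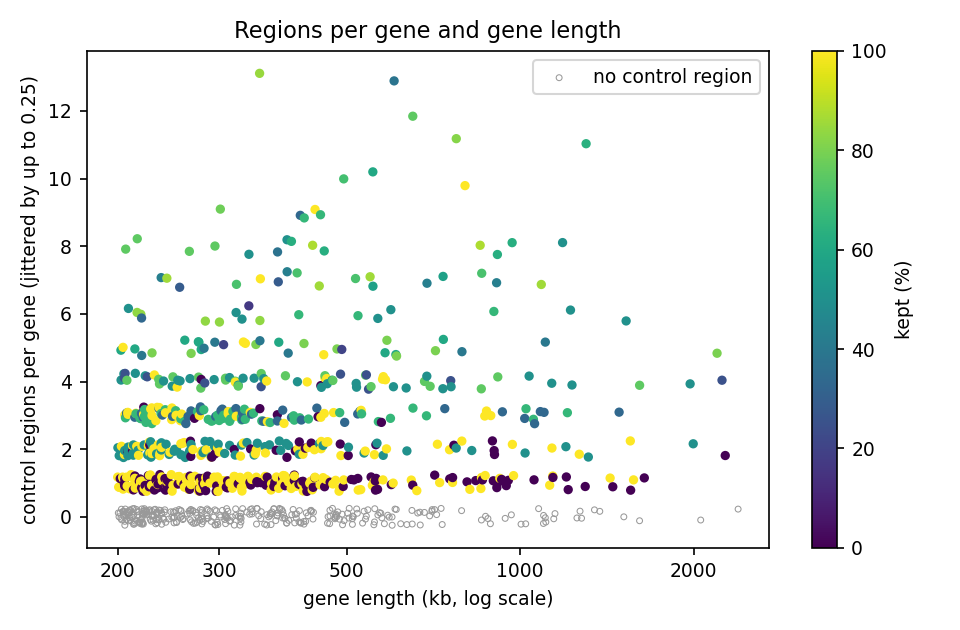
Control CTCF regions per gene (y axis, jittered) against gene length in kb (x axis, log scale) for the 990 protein-coding genes of 200 kb or longer, coloured by the percentage kept. The highest count, 13, belongs to genes of 353 and 604 kb, while the longest gene, at 2390 kb, has none.

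The genes with the most control regions were Gse1, whose coiled-coil product belongs to a histone deacetylase complex, and Kalrn, the kalirin gene, with 13 each. They differed in what was kept. Gse1 (chromosome 8, 120228501 to 120581383) kept 11 of 13 and had no region of its own in the list labelled knockout. Its strongest region (120319360 to 120319945, 91.1 kb from the start) reached a fold enrichment of 14.0 in the control and 17.6 in the other list, and its 2 lost regions had 6.06 and 4.75. Kalrn (chromosome 16, 33969073 to 34573277) kept 5 of 13, and 2 of these 5 overlapped the same labelled-knockout region. Its strongest region (33996125 to 33996516) was kept at 9.97 and 9.81, while regions at 34344060 to 34344306 (9.25) and 34112575 to 34112800 (8.53) were lost. Recovered pileups in Kalrn ran from 8 to 22 reads, and in Gse1 from 9 to 30 reads.

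Among the next 10 genes, Nav2, a cytoskeletal navigator gene, kept 9 of 12, and Arhgap26, a GTPase-activating protein gene, 9 of 11. Pde4d, which encodes a cyclic AMP phosphodiesterase, kept 7 of 11 over 1302 kb, with its strongest region (chromosome 13, 109547694 to 109548059) at 9.06 and 7.80. Ank3, the ankyrin-G gene, kept 7 of 10, Kirrel3, an adhesion gene, 6 of 10, Cacna1a, a neuronal calcium channel gene, 7 of 9 and Rbfox3, a splicing factor gene, 6 of 9. Camta1, a calmodulin-binding transcription activator gene, kept 10 of 10 over 802 kb. The 10 regions of Camta1 had control fold enrichments from 5.84 to 10.97 and labelled-knockout values from 5.36 to 12.1. Agap1, an Arf GTPase-activating protein gene, kept 9 of 9, including regions with as few as 8 reads. Syn3, a synapsin gene with as many regions as Agap1 but fewer per Mb, kept 6 of 9. Atxn1, the ataxin 1 gene, kept 3 of 9. Its kept regions were the 3 strongest (13.6, 10.8 and 8.47), and the 6 lost ones lay between 4.10 and 5.78.

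**Figure D4:**
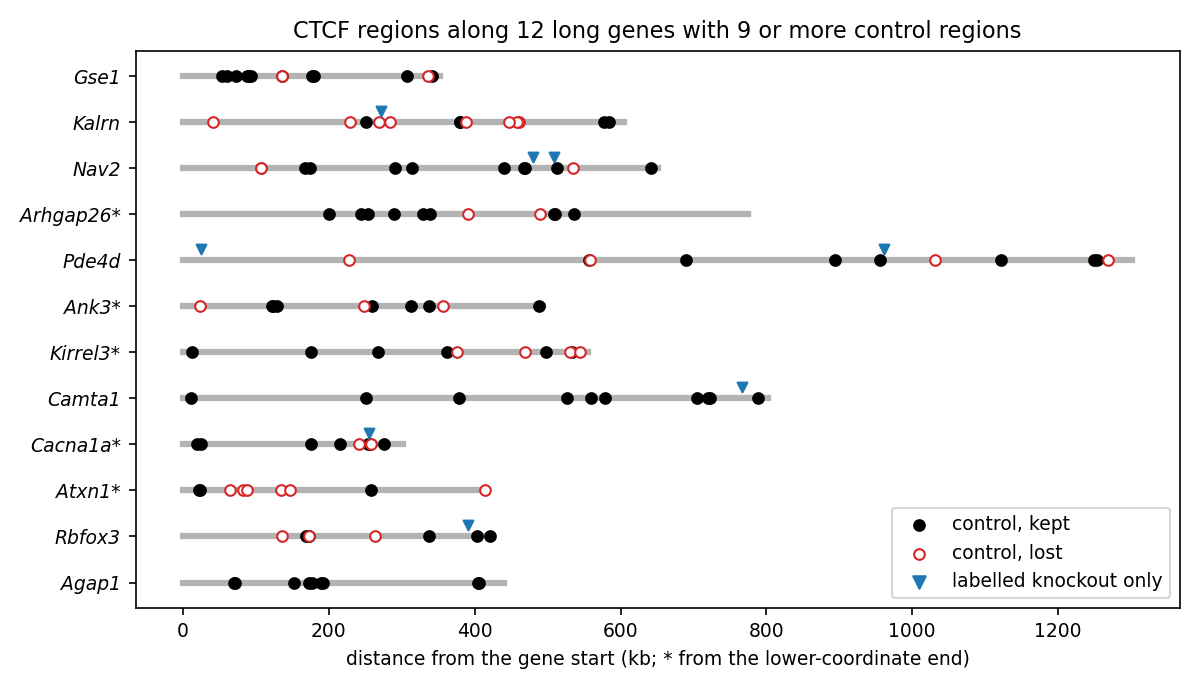
Positions of CTCF regions along 12 of the 13 long genes with 9 or more control regions (Syn3, with the fewest per Mb of those with 9, is not drawn), in kb from the gene start (x axis; an asterisk marks genes without a listed strand, measured from the lower-coordinate end). Filled circles are kept, open circles lost, and triangles called only in the library labelled knockout; Camta1 and Agap1 have no open circle, and Kalrn has 8.

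Besides Camta1 and Agap1, the genes with 5 or more regions that kept all of them were Ksr2, a scaffold gene of the MAP kinase cascade (7 of 7), and, with 5 of 5 each, Frmd4b, Nedd4l, a ubiquitin ligase gene, Sh3pxd2a and Zfp536. The lowest were those of Itpr1, an inositol trisphosphate receptor gene (1 of 6), Prkce, the protein kinase C epsilon gene (1 of 5), Slc2a13, a myo-inositol transporter gene (1 of 5), and Pdzd2 and Pknox2 (2 of 7 each). Pknox2, a homeobox gene, had its strongest region (chromosome 9, 36968839 to 36969091) kept at 18.4 in the control and 9.26 in the other list. In Prkce the kept region had 8.63 and 10.5, and a region of nearly equal control fold enrichment, 8.47, was lost. These genes were ranked by the same share that is given for them, so the shares only describe them.

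Of the muscle and sarcomere genes listed for this description, 17 of 23 were 200 kb or longer and 15 of these had a control region. They held 48 control regions, of which 24 were kept (interval 36.4% to 63.6%). At the same pileups 63.3% would have been expected, and the interval included both that value and the 61.4% of all regions in long genes. The median gene had 5.66 regions per Mb against 3.46 over all long genes. Over the summed length of the list there were 4.40 per Mb, close to the 4.37 per Mb of open length over all long genes. Dst, the gene of the cytoskeletal linker dystonin, kept 5 of 8 and Macf1, its relative, 4 of 8. Palld, which encodes the actin-organising protein palladin, kept 3 of 4, among them a region 363 kb into the gene (chromosome 8, 61539818 to 61540205) with 18.98 in the control and 19.99 in the other list. Palld also had 2 regions in the labelled-knockout list alone.

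Ttn, the gene of the giant sarcomere spring titin (chromosome 2, 76703980 to 76982557), kept 1 of 3. The kept region, 2.12 kb from the start, had 7.30 in the control and 7.56 in the other list, and the lost ones, 52.6 and 139 kb from the start, had 6.48 and 4.99. A region 13.4 kb from the start (76969080 to 76969317) was called only in the library labelled knockout, at 5.82. Rbm20, the splicing regulator gene of titin, kept 1 of 4 (8.97 and 5.36), and its 3 lost regions had 5.68, 4.49 and 6.98. Utrn, the gene of the dystrophin relative utrophin, kept its strongest region of 4 (12.96 and 6.83), and the lost ones had 3.99 to 6.47. Syne1, which encodes a nuclear envelope spectrin-repeat protein, kept 2 of 3. Fhod3, a cardiac formin gene, and Dtna, the dystrobrevin alpha gene, each had 1 control region, which was lost, and 2 regions in the labelled-knockout list alone. Dmd, the dystrophin gene and the longest of all at 2390 kb, had no region in either list, and neither had Sgcz, a sarcoglycan gene. An empty gene means that nothing passed the authors' threshold, and does not show that CTCF is absent.

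Calcium handling and ion channel genes carried more regions per length than the median long gene. Of 30 genes listed, 28 were long and 27 of these had a control region. The median gene had 6.79 per Mb against 3.46. Over their summed length there were 6.50 per Mb, against 4.37 per Mb of open length over all long genes. Of the 87 regions of these genes 58 were kept (66.7%, interval 56.2 to 75.7), with 64.2% expected at the same pileups. That kept share did not differ from the 61.4% of all regions in long genes beyond its interval. The pore-forming gene of the cardiac L-type calcium channel, Cacna1c, kept 4 of 5. Its kept regions had control values of 4.49, 9.47, 6.37 and 6.04 and labelled-knockout values of 5.40, 11.1, 6.97 and 6.83. Ank2, the ankyrin-B gene, kept 4 of 4, Kcnq1, a repolarising potassium channel gene, 3 of 4 and Kcnma1, a calcium-activated potassium channel gene, 4 of 5. Cacnb4 and Kcnip1, both channel subunit genes, kept 3 of 3. Ryr2, which encodes the calcium release channel of the cardiac sarcoplasmic reticulum, had 1 control region over 554 kb, and it was kept.

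The genes of the inositol trisphosphate receptors, which release calcium from internal stores, had mostly lost regions. Itpr2 kept 3 of 7 (7.48, 11.5 and 11.95 in the control list), and its 4 lost regions had 4.49 to 6.48. In Itpr1 the single kept region was one of the weaker ones by fold enrichment, at 4.62, with 17 reads. The strongest lost region of the whole set was also in Itpr1 (chromosome 6, 108426752 to 108426992), with a fold enrichment of 12.96 on 25 reads. Asph, the junctin gene, kept 2 of 5. Slc8a1, the sodium-calcium exchanger gene, Kcnd2, Kcnd3 and Kcnn2 each had 1 control region, and all 4 of these were lost. The other genes of this list with 1 control region, Ryr2, Cacna2d1, Cacna2d3 and Cacnb2, all kept theirs. Counts this small leave wide intervals for any single gene.

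Signalling genes (27 long of 31 listed, 20 with a control region) kept 42 of 66 regions (63.6%, 51.6 to 74.2), against 65.3% at the same pileups. The median gene had 4.605 regions per Mb. Over their summed length there were 4.28 per Mb, close to the 4.37 per Mb of open length over all long genes. Besides Pde4d, the phosphodiesterase gene Pde10a kept 4 of 4, Pde1c 3 of 5 and Pde4b 2 of 4. Rora, a nuclear receptor gene, kept 4 of 7, and Akap6, which anchors protein kinase A at the nuclear envelope of myocytes, 3 of 3. Erbb4, the neuregulin receptor gene of 1077 kb, and Esrrg, a nuclear receptor gene of mitochondrial metabolism, had no region in either list.

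Genes of transcription factors and chromatin proteins (33 long of 49 listed) had a median of 2.42 regions per Mb. Over their summed length there were 4.07 per Mb, near the 4.37 per Mb of open length over all long genes. Of the 33, 11 had no control region, a share close to that over all long genes (316 of 990). They kept 34 of 63 (54.0%, 41.8 to 65.7), against 61.2% at the same pileups. Zfhx3, a zinc-finger homeobox gene, kept 3 of 4 with a strongest control value of 17.3, and Bach2, a leucine-zipper repressor gene, kept 4 of 5. Prdm16, a zinc-finger methyltransferase gene, kept 3 of 6 and Nfia, a nuclear factor I gene, 1 of 4. Foxp2, Meis2, Sox6, Gli2 and Gli3 had no region in either list.

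Genes of cell adhesion and the synapse had fewer CTCF regions per length than the median long gene, but most of them were longer than 500 kb. Over all genes there were 3.32 control regions per Mb at 500 to 1000 kb and 1.56 over 1000 kb. The value of this list lay between those 2, so it is not shown to be particular to these genes. All 56 genes listed were long, with 56.0 Mb in sum and 2.18 control regions per Mb, and the median gene had 1.27 per Mb against 3.46 over all long genes. They kept 63 of 122 (51.6%, 42.9 to 60.3), with a median pileup of 12 reads. That interval lay below the 61.4% of all regions in long genes but included the 57.0% expected at the same pileups. Dlgap1, a postsynaptic scaffold gene, kept 7 of 8, Cdh4, a cadherin gene, and Ntm, a neural adhesion gene, 5 of 8 each, and Cdh13, the T-cadherin gene, 4 of 8. Slit3, a guidance ligand gene, kept 4 of 5 and Dscam, an adhesion gene, 4 of 4. Of the 56 genes, 15 had no control region, Dcc, Cdh12, Cntn4 and Cntn5 among them. Over all long genes it was 316 of 990, so empty genes were not more frequent in this list.

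Genes at large fragile sites, stretches that break readily when replication is slowed, gave 19 control regions in 10 long genes. Of these regions 10 were kept (52.6%, 31.7 to 72.7), and the interval included the 59.0% expected at the same pileups. Wwox, a tumour suppressor gene, kept 5 of 8, Immp2l, a mitochondrial protease gene, 1 of 3 and Macrod2 1 of 2. Fhit, Lrp1b, Dpyd, Naaladl2, Sntg1 and Dmd had none in either list. The listed genes of other heart cell types (12 long of 38) held 25 control regions and kept 13 (52.0%, 33.5 to 70.0). That interval included the 63.2% expected at the same pileups. Ldlrad3 kept 3 of 3, Tns1, the tensin gene, 3 of 5, Ptprm, a receptor phosphatase gene, 2 of 3, Col23a1, a collagen gene, 2 of 4 and Rgs6, a regulator of G protein signalling, 1 of 4. Plcl1 and Arhgap15 kept their single regions, and Col25a1 and Prex2 lost theirs. The endothelial transcription factor gene Erg lost both of its regions, and Ebf1 and Col14a1 had none. These lists overlap in Dmd, Lrp1b, Ebf1 and Ptprm, and they were chosen with results of these data known.

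The 8 longest genes held 18 control regions between them. After Dmd these were Ptprd, a receptor phosphatase gene of 2271 kb, which lost both regions (5.36 and 6.82), Cntnap2, a neurexin relative (2241 kb, 1 of 4 kept), and Lsamp, a limbic adhesion gene (2197 kb, 4 of 5 kept). They were followed by Lrp1b (2058 kb, none), Macrod2 (1998 kb), Dlg2, a synaptic scaffold gene (1973 kb, 2 of 4 kept), and Csmd1 (1643 kb), whose single region, at 5.48, was lost. In Lsamp 3 of the 5 regions, all kept, lay 8.98 to 16.5 kb from the far end of the gene. The 5 longest genes with no region in either list were Dmd, Lrp1b, Fhit, Dpp10 and Il1rapl1, from 2390 down to 1375 kb.

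The strongest regions of the set were kept. A region in Ctif, a translation initiation factor gene (chromosome 18, 75599747 to 75600412), had 27.4 in the control and 26.8 in the other list. A region in Snx29, a sorting nexin gene, had 21.4 and 25.7, and the next were those of Palld, App, Pknox2 and Iqsec1, an Arf exchange factor gene (18.0 and 18.6). At Ctif, Snx29, Palld and Iqsec1 the control background was 1.84 to 2.11 reads, above the lowest of the library (1.01). The strongest lost regions after that of Itpr1 lay in Map3k5, a stress-activated kinase gene (12.7), Vwa8 (12.3), Smyd3, a methyltransferase gene (11.5), Opcml, an adhesion gene (11.2), and Tead1, the Hippo pathway transcription factor gene (10.97). They had 21 to 25 reads. These members were ranked by fold enrichment, which is therefore a description.

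Among regions that the library labelled knockout alone held, the strongest lay in Abca13 (12.4 in that list), Akap6 (11.3), Usp29 (10.3), Rora (10.3), Nav2 (9.19) and Btbd9 (9.16), with 16 to 22 reads. Abca13 had 1 control region as well, at another position, which was lost. In 4 genes 3 such regions were found: Galnt17, a glycosyltransferase gene, Med12l, a Mediator subunit gene, Tenm4, a teneurin gene, and Mid1, a ubiquitin ligase gene on chromosome X. In Galnt17 they had 7.02, 4.32 and 6.05, and in Tenm4 6.45, 7.56 and 5.40. In Med12l they had 5.36, 4.66 and 5.85, and the first (59079065 to 59079248) lay close to a lost control region (59079390 to 59079563). The 3 in Mid1 had low fold enrichments (4.43, 3.08 and 3.29) on pileups of 36, 32 and 61 reads. Their local background was thus high, and all lay within 4.53 kb of the nearest gene end. They were also close to kept control regions of Mid1 (169986850 to 169987284 and 169989374 to 169989518). A call that shifts until it overlaps no control region counts as held by this list alone. Whether any of these regions arose so was not tested.

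Regions were not spread evenly along the genes. Measured from the start, over the 1363 control regions in genes with a listed strand, the first 4 of 5 equal parts held 256, 230, 239 and 227, and the last part held 411 (30.2%, interval 27.8 to 32.6) on 19.8% of the open length. That is 4.06, 3.598, 3.74, 3.56 and 6.54 per Mb. The list labelled knockout gave 2.87, 2.69, 2.68, 2.73 and 5.33 per Mb. In genes of 50 to 200 kb the last part was again the densest (12.2 control regions per Mb), and the part before it already held 9.72 against 5.97 in the second. The kept share was 66.9% (62.2 to 71.3) in the last part and 59.0% to 63.5% in the others, with overlapping intervals.

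**Figure D5:**
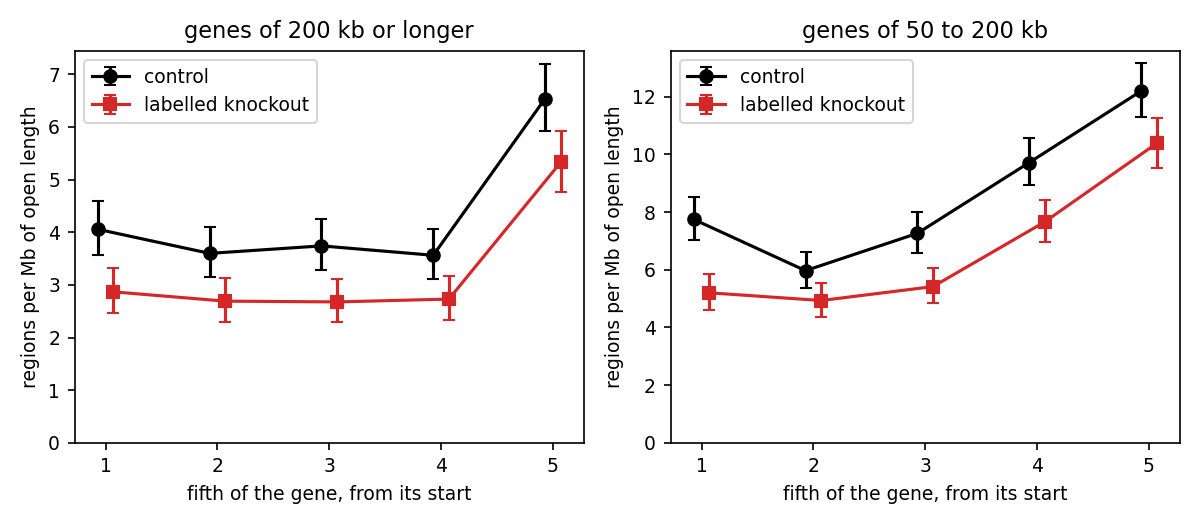
CTCF regions per Mb of open length (y axis) in 5 equal parts of the gene from its start (x axis), for genes of 200 kb or longer and of 50 to 200 kb, with exact Poisson 95% intervals. In the long genes the first 4 parts are level, at 3.56 to 4.06 per Mb in the control, and the last reaches 6.54.

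The median distance from a control summit to the nearest gene end was 32.9 kb, and the farthest was 621 kb. The kept share did not follow that distance in order. It was 61.0% (54.5 to 67.2) at 1 to 5 kb, 65.4% (60.8 to 69.7) at 5 to 20 kb, 61.5% at 20 to 50 kb and 61.7% at 50 to 100 kb. Of the 280 regions over 100 kb away 54.6% were kept (48.8 to 60.4). The same pileups gave 66.0%, 67.3%, 65.4%, 63.6% and 60.1% elsewhere. Neighbouring control regions of the same gene were 33.6 kb apart in the median, with 295 of 1143 pairs (25.8%) within 10 kb. Both regions were kept in 451 pairs, both were lost in 172, and 520 pairs had 1 of each. Thus 54.5% of pairs were alike. The share that unrelated regions would give was not worked out, so these counts only describe the pairs. A lncRNA gene also covered 107 control regions (5.92%), of which 58 were kept (54.2%), against 61.4% of all control regions in long genes.

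Over the 19 autosomes the kept share ran from 54.5% on chromosome 17 to 68.4% on chromosome 18, with every interval including the autosomal share of 61.5%. Chromosome X had 45 long genes but only 15 control regions in them, of which 6 were kept (40.0%, 19.8 to 64.3). The median pileup there was 11 reads, and 49.8% was expected at those pileups. In the list labelled knockout 9 of 15 X regions had no control region (60.0%, 35.7 to 80.2), 3 of them in Mid1, against 18.0% on the autosomes. On the autosomes alone the kept share and the unshared share of the whole set were 61.5% and 18.0%.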

How the data were processed

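CTCF ChIP-seq was done on 1 library of control and 1 of CTCF knockout left-ventricular cardiac myocytes, each pooled from 3 hearts, with 1 input library per genotype. Per the submitters' processing notes, reads were handled with Bowtie2 2.2.6, SAMtools 0.1.19 and MACS2 on mm10, with no settings of MACS2 given in the sources used here. The authors deposited 1 region list per genotype. Each deposited line gives a score, the fold enrichment over the local background as a ratio, and the −log10 p and −log10 q of the authors' caller (lowest −log10 q 1.32 for the control and 1.37 for the other). Total reads per library are not used here.

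From these files the pileup at each summit was recovered from the fold and the −log10 p. Only whole numbers of reads were tried, so every recovered pileup is whole by construction. The −log10 p implied by the chosen pileup lay within 0.001 of the deposited value for 100.0% of regions. The lowest pileup was 6 reads. The lowest background was 1.01 reads for the control and 0.851 for the library labelled knockout. Summits were placed on RefSeq genes of GRCm38.p6 (21887 protein-coding and 12727 lncRNA genes). Shares carry Wilson and their differences Newcombe intervals, densities exact Poisson intervals and medians order-statistic intervals, all at the 95% level. Open length between genes was counted from the first to the last gene end of each chromosome, and mitochondrial regions (12 and 14) stayed out of the classes. Expected shares are those of all other regions at the same pileup, with bins of under 20 regions pooled. The analysis used Python 3.11.15, numpy 2.4.6, pandas 2.3.3 and scipy 1.17.1, and the scripts were tested on simulated data.

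Named genes are the 12 with the most control regions (ties by number per Mb), the 8 longest, the 5 highest and 5 lowest kept shares among genes with 5 or more (ties by number of regions, then by name), up to 8 members of each of 7 gene lists by number of control regions, the 5 longest genes without a region, genes with 3 or more regions in the list labelled knockout alone, and the genes of the 6 strongest regions of each kind. Genes at the listed starts and further members of the lists, such as Ryr2, Fhod3 and Dtna, and the tied genes Syn3, Sh3pxd2a and Zfp536 were named after their values had been seen. The regions and lists were chosen with earlier results of these data known. The control and knockout inputs enter only as the authors' caller used them. A motif search over all regions and exon classes were not done here. Some members of the gene lists count in the totals but are not reported here by name.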

Additional observations from a re-analysis of the deposited data

How the results depend on the processing

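Over the planned and added alternatives, 39 values stayed within the counting interval of the value reported and 14 moved beyond it. No difference in kept share changed sign, while shares and density ratios are positive by definition and could not. The cause was not tested for any of the 14 moves. By its definition the 50% overlap rule can only lower the kept share and raise the unshared share. The kept share moved to 53.9% where the overlap had to cover 50% of both regions, 58.1% where summits had to lie within 100 bp and 49.9% with a recovered pileup of at least 15 reads in both lists, a limit chosen after seeing the data. The share of labelled-knockout regions without a control region moved to 28.0%, 22.3% and 23.1% under the same settings, to 24.2% for regions whose −log10 q reached 5 and to 23.7% with a fold enrichment of at least 5. At a pileup of at least 15 the difference in kept share from shorter genes was -10.7 points and the same-pileup difference -8.05 points. Density relative to shorter genes moved to 0.440 with a gene length of at least 100 kb, 0.321 at 400 kb, 0.451 at 5 kb from gene ends and 0.347 at a pileup of at least 15. No paired analysis was possible because there is 1 library per genotype. Depth limits what was called: regions under 6 reads are in neither list.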
